A study of Mus musculus with 3 samples.

Results

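Cholesterol reaches ovarian cells by synthesis, by uptake from lipoproteins and by release from stores, and 29 genes of these routes were followed in the developing mouse ovary. They were chosen by symbol, with no measured value in the rule, but with earlier results of these data known. The set makes up 29 of the 53465 genes listed. They comprise 8 enzymes of the mevalonate arm, 11 enzymes of the sterol arm, 3 genes of sterol sensing and 7 genes of uptake, transport and storage. The ovaries came from wild-type C57BL/6 females at embryonic day 16.5 (E16.5; the title of that library gives day 17) and postnatal days 7 (P7) and 14 (P14). Each age was 1 library of cells freed with collagenase and captured with the 10x Genomics droplet system, and all 3 libraries shared a sequencing lane. How many animals were pooled per library is not given in the sources used here. There is 1 library per age, so no difference has a replicate check and no p-value is given.

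In this pathway the mevalonate arm turns acetyl-CoA into farnesyl diphosphate, and the sterol arm turns that into squalene, lanosterol and then cholesterol. When membranes run low in sterol, the escort protein SCAP (Scap) carries the transcription factor SREBP-2 (Srebf2) to the Golgi for activation, and INSIG1 (Insig1) holds both back when sterol is plentiful. In the ovary, theca cells around growing follicles turn cholesterol into androgens, which granulosa cells inside the follicle convert to oestrogens. Cholesterol for steroids can also be taken from lipoproteins by the scavenger receptor SR-BI (Scarb1), stored as esters by Soat1, moved out of lysosomes by Npc1 and Npc2, and exported by Abca1 to carriers such as Apoe.

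SREBP-2 is known to bind sterol regulatory elements, often beside CCAAT boxes bound by NF-Y. RefSeq promoter windows (GRCm38.p6) were found for 23 of the 29 genes. None was listed for Sqle, Fdps, Fdft1, Stard4, Scarb1 and Npc1. Shown are the 250 bases before the start of 3 members. They were picked by name among the members higher in theca-marked cells than in both granulosa and stroma cells. Other members that may meet the same conditions are not shown. The 3 picked have 1 listed window each, and it holds no annotated exon. These 3 genes represent the mevalonate arm (Hmgcs1), the sterol arm (Sc5d) and export (Abca1). Capitals mark TCACNCCAC or CCAAT on either strand, so that ATTGG is a CCAAT box on the opposite strand.
Hmgcs1: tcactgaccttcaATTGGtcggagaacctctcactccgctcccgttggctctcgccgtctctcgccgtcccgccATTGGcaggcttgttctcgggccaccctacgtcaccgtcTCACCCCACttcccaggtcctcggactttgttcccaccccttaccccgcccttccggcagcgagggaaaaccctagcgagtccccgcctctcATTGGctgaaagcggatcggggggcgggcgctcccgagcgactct
Sc5d: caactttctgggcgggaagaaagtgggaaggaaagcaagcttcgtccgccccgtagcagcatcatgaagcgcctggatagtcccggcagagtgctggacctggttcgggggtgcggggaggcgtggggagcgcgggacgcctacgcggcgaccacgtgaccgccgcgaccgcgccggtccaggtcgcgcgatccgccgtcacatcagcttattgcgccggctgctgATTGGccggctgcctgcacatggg
Abca1: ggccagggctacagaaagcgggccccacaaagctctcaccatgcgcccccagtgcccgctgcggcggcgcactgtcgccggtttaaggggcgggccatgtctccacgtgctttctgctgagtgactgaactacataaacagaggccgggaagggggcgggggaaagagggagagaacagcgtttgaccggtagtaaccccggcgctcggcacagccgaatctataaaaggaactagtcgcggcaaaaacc
The Hmgcs1 window lies at chr13:119690101-119690350 on the plus strand, the Sc5d window at chr9:42264301-42264550 on the minus strand and the Abca1 window at chr4:53159896-53160145 on the minus strand. None of the 3 overlapped a gene annotated in GENCODE M21. The Hmgcs1 window held 1 match to TCACNCCAC, at position -137 from the start, and 3 CCAAT boxes. The Sc5d window held 1 CCAAT box, and neither motif was found in the Abca1 window. The full windows of 300 bases also take in the first bases of the transcript. The 23 members found had 29 such windows, so some members count more than once. Over these windows, TCACNCCAC was found in 1 of 29 member windows (3.45%), that of Hmgcs1, and in 1.24% of all 32851 windows. CCAAT was found in 19 of 29 member windows (65.5%), against 37.4% of all windows. The GC box GGGCGG, the core of Sp1 sites, was found in 22 of 29 member windows (75.9%), against 35.7% of all. Both strands were searched, the motifs do not overlap one another in their letters, and a match is a description of these letters only.

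The libraries were alike in depth, with 8743797 to 9065595 UMIs (unique molecular identifiers, which count captured mRNA molecules) and medians of 11435 to 15090.5 UMIs per kept cell. A total of 456, 509 and 583 cells were kept at E16.5, P7 and P14, and no cell barcode was shared between libraries. Cells were placed in classes by summed marker UMIs per 10000, and levels are given as counts of the gene per 1000000 UMIs of the class (CPM), with 95% Poisson intervals that cover counting error only. Granulosa cells numbered 68, 83 and 55 at the 3 ages, and stroma cells 102, 317 and 339. The theca gate, 10 or more UMIs per 10000 of Cyp17a1, Cyp11a1 and Hsd3b1 together, held 0, 6 and 76 cells.

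The gate did not hold 1 kind of cell. At P14, 42 of its 76 cells carried the other theca markers (Star, Lhcgr, Insl3, Fdx1, Mrap and Aldh1a1) and are called theca-marked here. The other 34 carried granulosa markers and passed the gate mainly through Hsd3b1, the steroid dehydrogenase that makes progesterone. In these granulosa-marked cells Hsd3b1 stood at 1979 CPM, Cyp17a1 at 23.1 CPM and Cyp11a1 at 73.2 CPM, while Star and Insl3 had no UMI, which allows up to 7.11 CPM. Their granulosa markers summed to a median of 113 UMIs per 10000, against 10.1 in theca-marked cells. Theca-marked cells had 1584 CPM of Cyp17a1, the androgen-forming lyase, and 164 CPM of Star, which brings cholesterol into mitochondria. They were not free of other markers: 12 of 16 granulosa markers had a UMI (1761 CPM summed, with Fst, Fshr, Cyp19a1 and Irx3 at 0) and 14 of 15 stroma markers (1687 CPM, with Dpt at 0). Their part in the results was not tested. In clusters made without the members, 1 theca cluster held exactly the 42 theca-marked cells, and the 34 others fell in granulosa clusters. The gate genes and the theca and granulosa markers were not left out of the clustering, so this match is not an independent check of the split. Of the 339 stroma cells, 178 fell in stroma clusters and 154 in clusters left unnamed. Of the latter, 79 fell in a cluster led by Tmem100, Hhip and Osr2 and 48 in one led by Pimreg, Tubb6 and Mxd3. The other 27 fell in one led by Tgfbi. The part of this mix in the ratios to stroma was not tested. The cut between theca-marked and granulosa-marked cells was set on marker sums after the data had been seen. Results at P14 are therefore given for the whole gate and for both kinds of cell. At P7 only 2 of the 6 gate cells were theca-marked, and the theca cluster held 0 cells of that library.

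**Figure D1:**
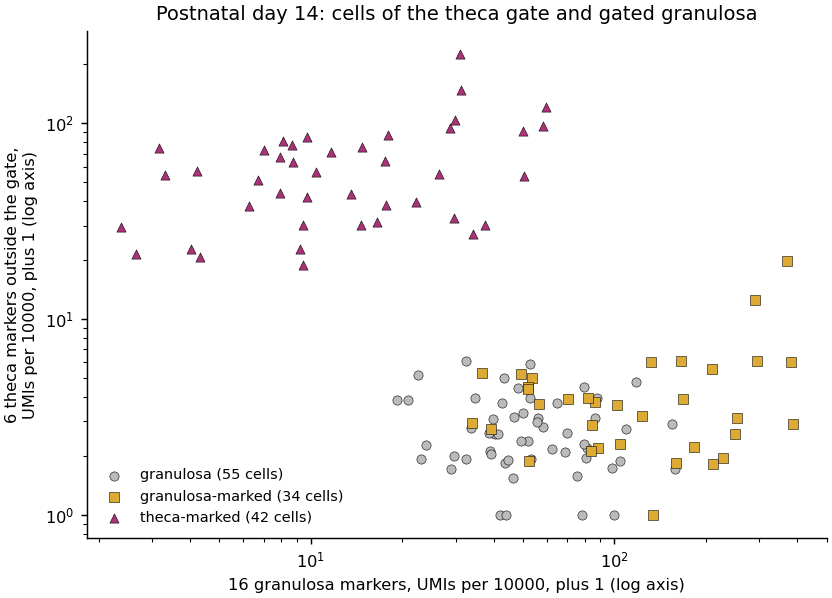
Each point is 1 cell of the P14 library inside the theca gate or in the granulosa class, placed by its granulosa marker sum (horizontal) and its sum of theca markers outside the gate (vertical), in UMIs per 10000 plus 1 on log axes. The 42 theca-marked cells and the 34 granulosa-marked cells of the gate separate on the vertical axis save at the margin, with unshifted sums of at least 17.9 in the former and at most 18.9 in the latter.

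The first comparison set P14 theca-gate cells against granulosa cells of the same library. Synthesis enzymes, the lipoprotein receptor Scarb1 and the exporter Abca1 were higher in the gate, and no member was lower. A member is called higher or lower when its CPM ratio is at least 2-fold, the 95% interval of the ratio excludes 1 and both sides together hold at least 20 UMIs. Of 28 members with enough UMIs, 17 were called higher, and the median log2 ratio of CPM + 10 was 0.90. Over all 9466 genes tested, 7.8% were called higher and 7.25% lower, with a median of -0.04. Because the members were chosen with earlier results of these data known, setting them beside all genes is a description only, here and below. Tm7sf2, a sterol reductase, had too few UMIs. Restricted to the 42 theca-marked cells, 18 of 26 members were higher (median 1.08), against 10.5% of 8603 genes higher and 13.0% lower (median -0.08). Of these 18 members, 15 were also among the 17 of the whole gate.

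Against stroma cells, gated on matrix and mesenchymal markers such as Dcn, Col1a1 and Pdgfra, the gate had 21 of 28 members higher and none lower, with a median of 1.27. The background was 12.2% of 11636 genes higher and 9.02% lower, with a median of 0.07. Median-of-ratios scaling shifted these ratios by -0.23 on the log2 scale and gave 19 higher and 0 lower. No share of all genes is given under that scaling. Theca-marked cells had the same 21 members higher than stroma (median 1.46), against 10.2% of 11282 genes higher and 10.3% lower (median -0.00). Both comparisons share the gate cells, so their counts are not independent. A total of 14 members were higher in theca-marked cells than in both other classes. No share of all genes higher in both is given beside this count, so it is a description only. Theca-marked cells were deeper, with a median of 17383 UMIs per cell against 12369 in granulosa and 10046 in stroma. Dissociation stress genes such as Fos and Jun summed to 3490 CPM in theca-marked cells, 4680 CPM in granulosa and 5063 CPM in stroma. The part of depth and of stress in the ratios was not tested.

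In the mevalonate arm, Hmgcs1, the HMG-CoA synthase at its start, reached 318 CPM (282 to 357) in theca-marked cells, 56.2 CPM (42.1 to 73.5) in granulosa and 30.1 CPM (25.2 to 35.8) in stroma. The intervals did not overlap. The theca-marked level was 5.66-fold (4.21 to 7.73) that of granulosa and 10.6-fold (8.56 to 13.1) that of stroma, and the whole gate gave 4.07-fold and 7.59-fold. Per cell, Hmgcs1 ran from 0 to 12.2 UMIs per 10000 with a median of 2.33 in theca-marked cells, which overlaps granulosa cells at 0 to 2.72 with a median of 0. Fdps, the farnesyl diphosphate synthase, stood at 309 CPM in theca-marked cells, 63.7 CPM in granulosa and 22.9 CPM in stroma, 4.86-fold and 13.5-fold. Its level is uncertain, since the annotated gene Gm43738 overlaps it on the same strand. Idi1, the isopentenyl diphosphate isomerase, was 5.22-fold (2.62 to 11.6) higher than in granulosa and 6.64-fold (4.24 to 10.5) higher than in stroma.

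The kinases and the decarboxylase between these steps differed less. Mvk, the mevalonate kinase, was 2.93-fold (1.38 to 6.75) higher in theca-marked than in granulosa cells, and its 1.63-fold ratio to stroma was below the threshold. Mvd, the decarboxylase, gave 2.17-fold (1.08 to 4.58) against granulosa, where the whole gate gave an uncalled 1.79-fold, and 1.68-fold against stroma. Pmvk, the next kinase, gave the opposite pattern, with an uncalled 1.49-fold against granulosa and 3.69-fold (2.34 to 5.78) against stroma. Acat2, the cytosolic thiolase, was called in neither comparison, at 1.84-fold and 1.71-fold. Ggps1 draws farnesyl diphosphate away towards protein prenylation and had the lowest ratios of the arm, 0.687 (0.387 to 1.20) against granulosa and 0.853 (0.522 to 1.34) against stroma, both intervals holding 1.

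In the sterol arm, all 10 members with enough UMIs were higher in the gate than in stroma, and 8 of 10 were higher than in granulosa. Msmo1, a methylsterol oxidase, stood at 152 CPM (127 to 179) in theca-marked cells, 25.5 CPM (16.3 to 37.9) in granulosa and 7.18 CPM (4.88 to 10.2) in stroma. Its 21.1-fold (14.2 to 32.3) ratio to stroma was the highest of any member. Cyp51, the lanosterol demethylase, was highest of the arm against granulosa, at 62.1 CPM and 7.43 CPM or 8.36-fold (3.80 to 21.7), and stood 4.25-fold above stroma. Dhcr7, the reductase that yields cholesterol, was 7.05-fold (3.34 to 17.2) and 8.07-fold (5.12 to 12.9) higher than in granulosa and stroma. Nsdhl, a sterol dehydrogenase, gave 6.42-fold and 6.86-fold. Granulosa counts were small here, 7 UMIs for Cyp51, 7 for Nsdhl and 8 for Dhcr7, and the intervals are wide accordingly.

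The other sterol-arm members lay on the same side. Fdft1, squalene synthase, was 2.51-fold (1.58 to 4.10) higher in theca-marked cells than in granulosa and 8.4-fold (5.53 to 12.9) higher than in stroma. Sqle, squalene epoxidase, gave 4.39-fold and 4.19-fold, and Sc5d, a sterol desaturase, 3.96-fold and 4.53-fold. Ebp, a sterol isomerase, had the lowest sterol-arm ratios of theca-marked cells, an uncalled 1.57-fold against granulosa and 2.36-fold (1.5 to 3.63) against stroma. Hsd17b7, a sterol ketoreductase, was 7.97-fold (3.71 to 17.9) above stroma. Against granulosa it was called in the whole gate, at 2.12-fold (1.02 to 4.84), and not in theca-marked cells, at 2.09-fold (0.933 to 5.00). Lss, lanosterol synthase, gave 2.50-fold (1.13 to 5.23) against stroma and had too few UMIs for a call of theca-marked cells against granulosa.

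In sterol sensing, Srebf2 stood at 46.5 CPM (33.5 to 62.9) in theca-marked cells, 22.3 CPM (13.8 to 34.1) in granulosa and 9.96 CPM (7.21 to 13.4) in stroma. The ratios were 2.09-fold (1.21 to 3.71) and 4.67-fold (2.98 to 7.32), although its level is uncertain where Gm49502 and Mir33 overlap it. Scap reached 142 CPM in theca-marked cells, 62.6 CPM in granulosa and 26.2 CPM in stroma, 2.27-fold and 5.42-fold. In the whole gate neither gene was called against granulosa, Srebf2 at 1.74-fold and Scap at 1.96-fold. Insig1 was called against stroma, at 42.1 CPM and 11.1 CPM or 3.79-fold (2.41 to 5.92). Against the 27.6 CPM of granulosa its 1.53-fold ratio (0.903 to 2.62) was not called, the lowest of the 3 sensing genes.

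Scarb1 had the highest ratio of any member between theca-marked and granulosa cells. It lies at chr5:125277087-125341094 on the minus strand (GRCm38), where the annotated transcript Gm42633 overlaps it, so a share of its UMIs is uncertain. Its level was 883 CPM (823 to 947) in theca-marked cells, 108 CPM (81.5 to 140) in granulosa-marked gate cells, 78.5 CPM (61.6 to 98.6) in granulosa and 90.6 CPM (81.8 to 100) in stroma. Theca-marked cells stood alone at the top. They were 11.3-fold (8.86 to 14.5) above granulosa and 9.75-fold (8.63 to 11) above stroma, while the whole gate gave 7.64-fold and 6.63-fold. Per cell, Scarb1 ran from 0.841 to 24.3 UMIs per 10000 with a median of 9.01 in theca-marked cells, from 0 to 3.28 with a median of 0.810 in granulosa, and from 0 to 4.87 with a median of 0.436 in stroma. All 42 theca-marked cells held a Scarb1 UMI, against 35 of 55 granulosa and 176 of 339 stroma cells. With every cell thinned to 5000 UMIs, 97.6% of theca-marked, 30.9% of granulosa and 35.1% of stroma cells still held one. Erythroid cells, read here for free RNA, held one in 1 of 10 cells when thinned, too few cells to set a floor. At E16.5, 15.8% of 158 erythroid and 20.6% of 102 stroma cells held one when thinned, with overlapping intervals.

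Abca1 and Soat1, which export and esterify cholesterol, were also high in theca-marked cells. Abca1 stood at 207 CPM (179 to 239) in theca-marked cells, 43.5 CPM (31.2 to 59.0) in granulosa and 20.2 CPM (16.1 to 24.9) in stroma, 4.76-fold (3.38 to 6.85) and 10.3-fold (7.93 to 13.4). Soat1 reached 521 CPM (475 to 570) in theca-marked cells and 298 CPM (264 to 335) in granulosa, an uncalled 1.75-fold (1.5 to 2.03) whose interval excludes 1. Stroma had 58.4 CPM of Soat1, so theca-marked cells were 8.92-fold (7.64 to 10.4) above it. Apoe, the carrier apolipoprotein, split the other way: 759 CPM (703 to 818) in theca-marked cells was 4.68-fold (3.92 to 5.61) above granulosa, at 162 CPM, and an uncalled 1.68-fold (1.54 to 1.84) above stroma, at 451 CPM.

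The lysosomal pair did not share a pattern. Npc2, the carrier in the lysosomal lumen, was at 257 CPM in theca-marked cells, 190 CPM in granulosa and 325 CPM in stroma, with uncalled ratios of 1.35 (1.11 to 1.65) and 0.791 (0.685 to 0.910). These were the lowest ratios among handling genes. Npc1, the membrane partner, rested on 16 UMIs in theca-marked and 5 in granulosa cells, 3.34-fold (1.17 to 11.7), and stood at an uncalled 1.44-fold against stroma. Stard4, a carrier of sterol between membranes, was called in the whole gate at 7.63-fold (1.88 to 66.7) on 2 granulosa UMIs, and against stroma at 3.88-fold (2.00 to 7.63). Theca-marked cells alone had 15 Stard4 UMIs, too few with the 2 of granulosa for a call, and were 3.99-fold (1.87 to 8.38) above stroma.

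**Figure D2:**
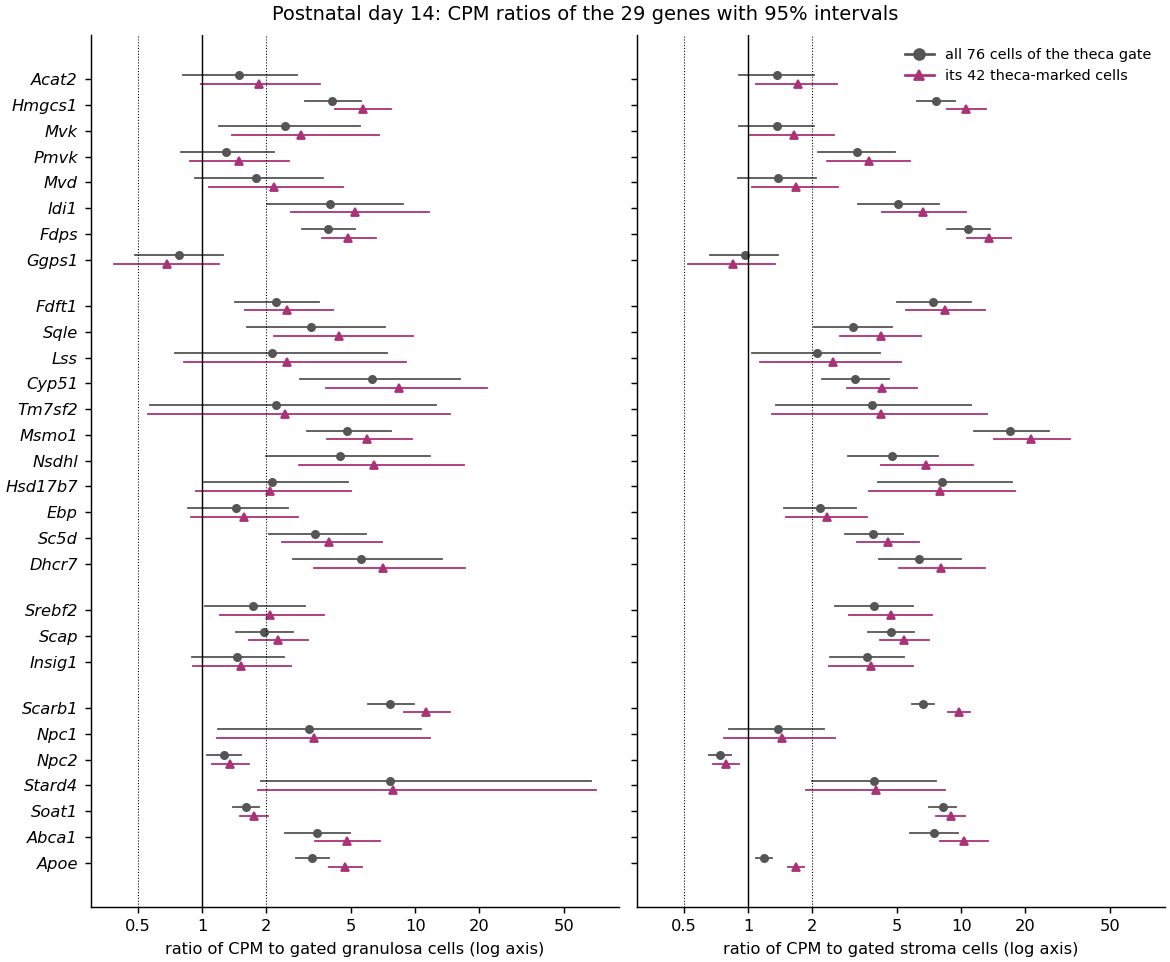
Each row is a member, grouped by role, with the CPM ratio of all 76 gate cells (circles) and of the 42 theca-marked cells (triangles) to granulosa (left) or stroma cells (right) of the P14 library on log axes, and 95% counting intervals as bars. Members with too few UMIs for a call are drawn too. Theca-marked points lie right of 1 for every enzyme tested but Ggps1, Scarb1 reaches 11.3-fold against granulosa, and Npc2 lies near 1.

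A list of 23 further genes of cholesterol metabolism holds Star and Fdx1, theca markers by which the cells were marked, and these were left out of the counts. Of the other 21 genes, 7 of 16 with enough UMIs were higher in theca-marked than in granulosa cells and 0 lower, against 10.5% of all genes tested higher and 13.0% lower. Among those higher were the lipoprotein receptor Vldlr (25.5 CPM and 3.18 CPM), the lysosomal lipase Lipa (38.8 CPM and 12.7 CPM) and the sterol transporter Gramd1b (171 CPM and 54.1 CPM). Fdxr, the reductase that feeds electrons to Fdx1 in mitochondrial steroid synthesis, was at 373 CPM and 28.6 CPM. Against stroma, 6 of 18 were higher and 1 lower, against 10.2% of all genes tested higher and 10.3% lower, with Srebf1, Gramd1b and Fdxr among those higher. Srebf1, the factor for fatty acid genes, was at 17.7 CPM and 7.18 CPM, and Cyp27a1, a sterol hydroxylase, was the one lower, at 2.22 CPM and 18.1 CPM.

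The granulosa-marked gate cells differed from granulosa cells in a few enzymes, and theca-marked cells differed from them in uptake, export and enzymes. Of 21 members with enough UMIs, 4 were higher than in granulosa and none lower (median 0.33), against 3.22% of 7924 genes higher and 2.76% lower (median 0.02). They were Fdps at 2.21-fold (1.55 to 3.16), Msmo1 at 2.72-fold (1.58 to 4.77), Sc5d at 2.39-fold (1.26 to 4.59) and Dhcr7 at 2.95-fold (1.13 to 8.21). Scarb1 at 1.37-fold, Hmgcs1 at 1.3-fold, Insig1 at 1.33-fold, Srebf2 at 1.12-fold and Apoe at 0.890 were not called. Theca-marked cells, compared directly with them, had 11 of 27 members higher and none lower (median 0.65), against 8.78% of 7571 genes higher and 10.0% lower (median -0.07). Scarb1 differed most, 8.19-fold (6.24 to 10.9), followed by Nsdhl at 6.18-fold (2.25 to 23.7), Apoe at 5.25-fold, Hmgcs1 at 4.34-fold and Abca1 at 4.14-fold. Sqle, Cyp51, Idi1, Dhcr7, Fdps and Msmo1 were higher by 2.19-fold to 3.45-fold. Soat1, at 521 CPM and 403 CPM, was not called.

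Granulosa and stroma cells of the P14 library differed less, and not in 1 direction. Of 28 members, 10 were higher in granulosa and 1 lower (median 0.15), against 15.4% of 11459 genes higher and 10.3% lower (median 0.08). Scaling by the median of ratios instead of the total moved all ratios by -0.20 on the log2 scale and gave 8 higher and 4 lower. No share of all genes is given under that scaling, so these counts are a description only. All 3 sensing genes were higher in granulosa, Srebf2 at 2.24-fold (1.26 to 3.85), Scap at 2.39-fold (1.71 to 3.30) and Insig1 at 2.48-fold (1.48 to 4.08). Pmvk at 2.48-fold, Fdps at 2.78-fold, Fdft1 at 3.34-fold, Msmo1 at 3.55-fold and Hsd17b7 at 3.82-fold were the enzymes called, while Hmgcs1 at 1.87-fold was not. Mvk at 0.558 and Cyp51 at 0.509 were the lowest of their arms, uncalled. Soat1 was 5.11-fold (4.29 to 6.08) and Abca1 2.16-fold (1.45 to 3.16) higher in granulosa, and Scarb1 at 0.867 was not called. Apoe was the member lower in granulosa, at 0.360 (0.304 to 0.425). Among the other pathway genes called, Gramd1b (54.1 CPM and 7.64 CPM) was higher and Vldlr (3.18 CPM and 45.2 CPM) and Cyp27a1 (3.18 CPM and 18.1 CPM) lower, among 19 tested.

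Summed over the 19 synthesis enzymes, theca-marked cells held 1443 CPM (1366 to 1523), granulosa-marked gate cells 640 CPM (573 to 712), granulosa 388 CPM (350 to 430) and stroma 258 CPM (243 to 273). No interval overlapped the next. The order was the same for the mevalonate arm alone, at 843, 343, 238 and 159 CPM, and for the sterol arm alone, at 600, 297, 151 and 98.9 CPM. Endothelium, at 440 CPM, lay above granulosa with an overlapping interval (396 to 488). Smooth muscle or pericytes, at 292 CPM, immune cells, at 249 CPM, and surface epithelium, at 233 CPM, were near stroma. The 3 germ cells held 639 CPM (540 to 752), above granulosa, and the 10 erythroid cells 72.0 CPM (42 to 115), below every other class.

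**Figure D3:**
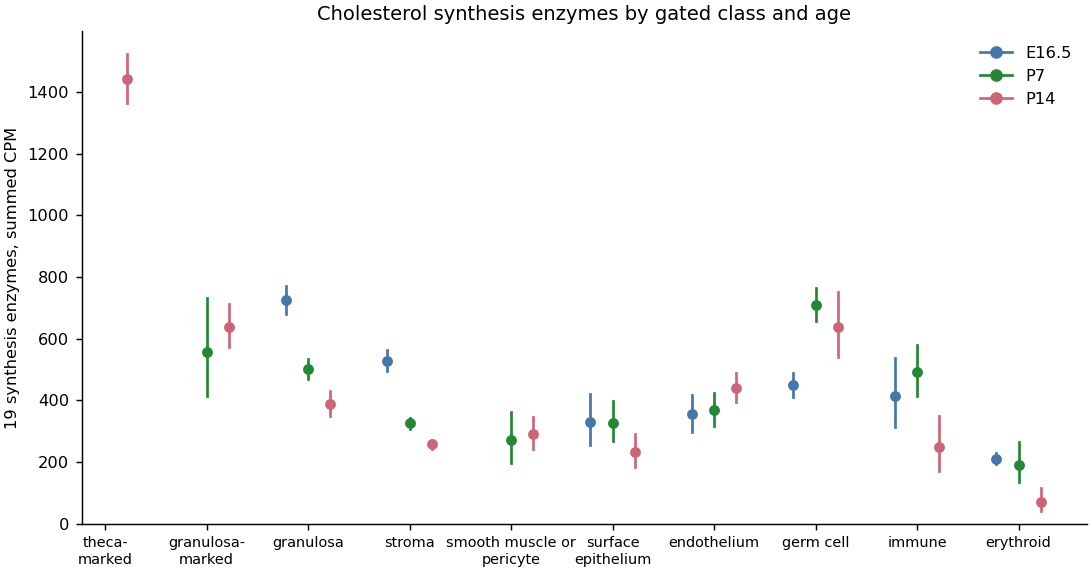
Points give the summed CPM of the 19 synthesis enzymes in each class with at least 3 cells, coloured by library, and bars their 95% Poisson intervals. Theca-marked cells of P14 reach 1443 CPM, and granulosa and stroma cells are highest at E16.5, at 725 and 529 CPM.

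Within the theca-marked cells the summed enzymes stood higher where the gate genes were higher, though not every enzyme did. Cells with a gate sum of 10 to 50 UMIs per 10000 (12 cells) held 716 CPM (610 to 835) of the 19 enzymes. Those at 50 to 100 (14 cells) held 1241 CPM (1120 to 1372), and those at 100 or more (16 cells) 2064 CPM (1920 to 2217). These intervals did not overlap. Hmgcs1 stood at 154, 266 and 464 CPM and Fdps at 132, 282 and 442 CPM over the same bins. Abca1 went along, at 105, 182 and 292 CPM, and Scarb1 at 642, 849 and 1062 CPM. Apoe, at 642, 891 and 721 CPM, Soat1, at 431, 681 and 442 CPM, and Npc2, at 250, 276 and 246 CPM, were not in that order. Neither were the enzymes Mvk, Pmvk, Mvd, Ggps1, Lss, Cyp51 and Nsdhl. Of these, Ggps1 stood at 17.6, 35.7 and 21.8 CPM and Cyp51 at 35.2, 16.2 and 117 CPM. Npc1 fell, at 30.8, 16.2 and 10.9 CPM on 7, 5 and 4 UMIs. No share of all genes rising over the bins is given, so these values are a description only. Median depth was 17210, 19445.5 and 18747.5 UMIs in the 3 bins. Stroma markers summed to 2070, 1614 and 1510 CPM over the bins, granulosa markers to 932, 1034 and 2889 CPM and dividing-cell markers to 220, 298 and 800 CPM, and their part in the order was not tested. The 5 theca-marked cells with 10 or more dividing-cell marker UMIs per 10000 held 1509 CPM of the enzymes, and the 37 others 1430 CPM, with overlapping intervals.

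Handling genes had class patterns of their own across the 3 libraries. Scarb1 in endothelium stood at 146, 235 and 154 CPM at E16.5, P7 and P14. At E16.5 and P7 endothelium was above granulosa, at 49.8 and 62.2 CPM, and above stroma, at 31.0 and 78.4 CPM. At P14 endothelium came next below theca-marked cells among named classes, and its interval (129 to 183) overlapped those of granulosa-marked cells and surface epithelium, at 103 CPM (70.6 to 144). At P7 the 2 theca-marked cells held 445 CPM of Scarb1 (293 to 647, on 27 UMIs). Neither fell in the theca cluster, which held 0 cells of that library.

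Apoe was highest in the immune class, at 4933, 13974 and 9539 CPM in 8, 16 and 9 cells. That class was mixed: the neutrophil gene S100a8 stood at 17245, 9117 and 0 CPM in it and the macrophage gene C1qa at 731, 1305 and 2797 CPM. At the 3 ages, 3 cells gave 87.7%, 53.9% and 51.0% of its Apoe UMIs. Surface epithelium, the mesothelial layer of the ovary, stood next, at 341, 927 and 3307 CPM, then theca-marked cells at P14. Erythroid cells, at 13.7, 46.5 and 21.2 CPM, were lowest at E16.5 and P14 and second to germ cells at P7. Soat1 was high in surface epithelium, at 232, 411 and 556 CPM, and in granulosa, at 251, 151 and 298 CPM, while stroma held 75.1, 75.2 and 58.4 CPM. The surface epithelium rests on 9, 15 and 12 cells, and at P14 3 cells gave 48.6% of its Soat1 UMIs. Its interval at P14 (478 to 644) overlapped that of theca-marked cells.

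Stard4, Npc1 and Fdft1 also varied by class. Stard4 in endothelium was at 54.6, 41.5 and 43.1 CPM, above granulosa at 11, 8.11 and 2.12 CPM. Npc1 in surface epithelium was at 10.3, 55.2 and 106 CPM, of which the first rests on 2 UMIs and lies below granulosa of that age, at 60.8 CPM. At P7 and P14 the next class, immune cells, was at 34.8 CPM (16.7 to 64.0) and 37.7 CPM (12.2 to 88.0), with intervals that overlapped those of surface epithelium. Fdft1 in germ cells was at 26.7 CPM (18.4 to 37.5) at E16.5, 298 CPM (264 to 335) at P7 and 258 CPM (197 to 333) at P14. Stroma, at 32.6 CPM (24.9 to 42), lay above germ cells at E16.5 with an overlapping interval. The next class was immune cells at P7, at 38.3 CPM, and theca-marked cells at P14, at 72.0 CPM. Germ cells of the later ages were 12 and 3 cells, with median depths of 81812.5 and 76636 UMIs against 14466.5 UMIs at E16.5.

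**Figure D4:**
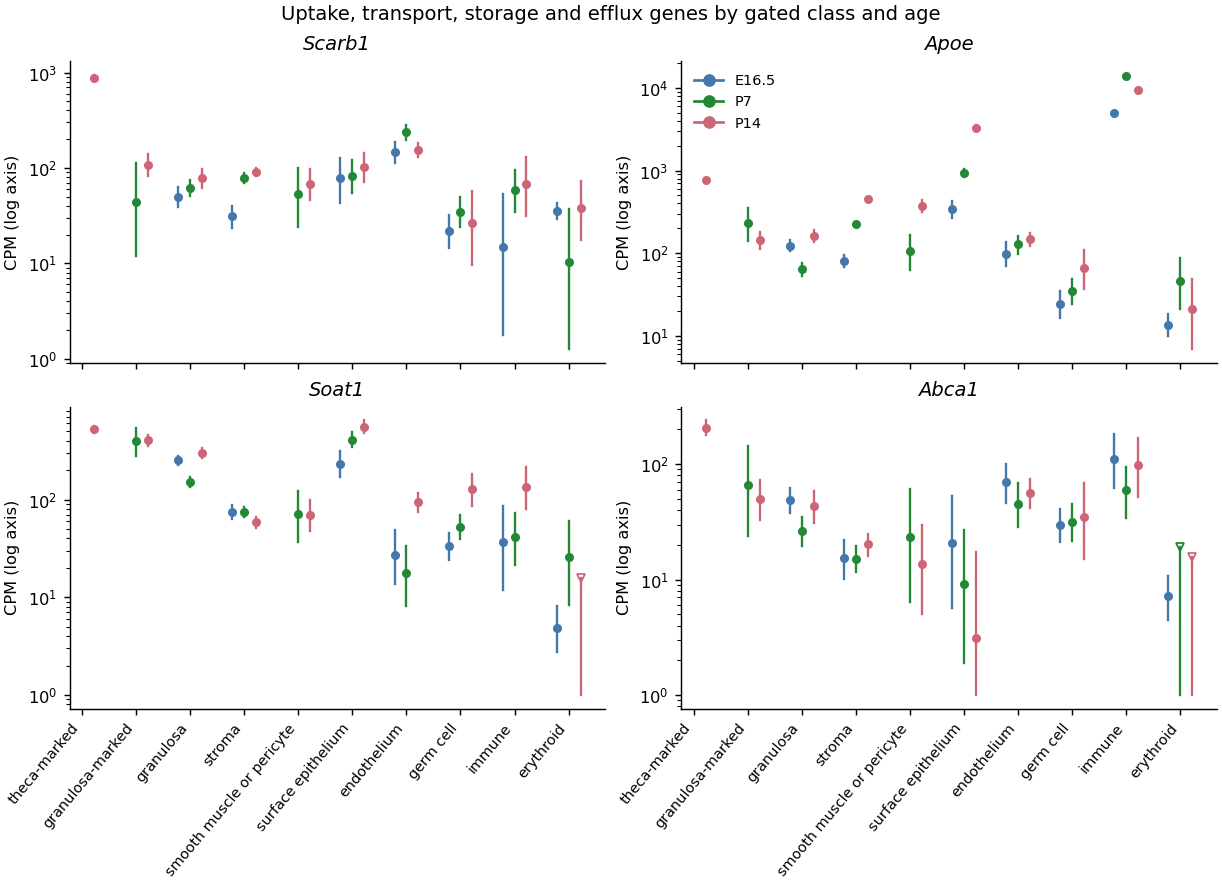
Points give the CPM of Scarb1, Apoe, Soat1 and Abca1 in each class with at least 3 cells, by library, on log axes with 95% Poisson intervals; open triangles mark the upper bound where no UMI was seen. Scarb1 is highest in theca-marked cells, Apoe in immune cells and surface epithelium, and Soat1 in surface epithelium, theca-marked cells and granulosa.

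Across ages, granulosa cells at P7 were set against those at E16.5. In a joint clustering of the 3 libraries without the members, a different cluster held most granulosa cells at each age: 66 of 68, 80 of 83 and 47 of 55 cells. The class was gated by the same markers at every age and may not be 1 kind of cell. The part of this difference between clusters in the ratios was not tested. Hmgcs1 fell and so did the lysosomal carrier Npc1, while Scap rose. Of 28 members 1 was higher and 2 lower (median -0.37), against 7.5% of 10952 genes higher and 12.9% lower (median -0.12), so the members' share was below the background. Hmgcs1 went from 236 CPM (211 to 264) to 70.8 CPM (59.2 to 84.0), 0.300 (0.243 to 0.368). At E16.5 it was seen in 57 of 68 cells, and 3 cells gave 20.1% of its UMIs. Npc1 went from 60.8 to 14.1 CPM, 0.231 (0.143 to 0.363), and Scap from 48.3 to 102 CPM, 2.11-fold (1.59 to 2.84). Fdps at 1.38, Ebp at 1.68, Srebf2 at 0.722, Insig1 at 0.656 and Scarb1 at 1.25 were not called. Neither was Cyp51, the lowest of the sterol arm, at 0.600, nor Apoe at 0.516. Among the called of 17 further pathway genes tested, Lipa (27.1 to 9.73 CPM) fell and Gramd1b (8.05 to 55.7 CPM) rose. Erythroid markers, a measure of free RNA here, summed to 6210 CPM in E16.5 granulosa cells and 490 CPM at P7, and dissociation stress genes to 6266 and 5106 CPM. Their part in these ratios was not tested.

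From P7 to P14, granulosa cells below the theca gate had 1 member higher and 4 lower of 26 tested (median -0.04), against 2.49% of 10079 genes higher and 4.69% lower (median -0.05). Sqle went from 40.5 to 10.6 CPM, 0.262 (0.121 to 0.508), Msmo1 from 53.5 to 25.5 CPM, 0.476 (0.291 to 0.749), and Dhcr7 from 20.5 to 8.49 CPM, 0.413 (0.166 to 0.899). Npc1 went from 14.1 to 5.30 CPM, 0.377 (0.113 to 0.999), on 5 UMIs at P14. Apoe rose from 63.8 CPM (52.8 to 76.4) to 162 CPM (138 to 190), 2.54-fold (1.99 to 3.26). The gate removes more granulosa cells at P14 than at P7, 34 against 4. With these put back, Msmo1, Dhcr7 and Npc1 were no longer called, at log2 ratios of -0.41, -0.52 and -0.59. Mvd at 1.42, Mvk at 0.654, Sc5d at 1.13, Hmgcs1 at 0.794, Scap at 0.613, Insig1 at 1.59, Srebf2 at 0.937 and Scarb1 at 1.26 were not called.

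In stroma cells 3 enzymes and Stard4 fell from E16.5 to P7, while Apoe, Scarb1 and Scap rose. Of 27 members 3 were higher and 4 lower (median -0.40), against 6.32% of 11772 genes higher and 6.62% lower (median 0.00). Acat2 went from 74.5 to 36.1 CPM, 0.485 (0.382 to 0.616), Mvd from 22.3 to 10.3 CPM, 0.460 (0.292 to 0.725), and Fdft1 from 32.6 to 12.0 CPM, 0.367 (0.246 to 0.544). Stard4 fell as well, from 12.0 to 5.62 CPM, a ratio of 0.469 (0.250 to 0.883). Apoe rose from 81.1 CPM (68.6 to 95.2) to 226 CPM (212 to 241), 2.79-fold (2.34 to 3.34), Scarb1 from 31.0 to 78.4 CPM, 2.53-fold (1.90 to 3.41), and Scap from 12.0 to 27.1 CPM, 2.26-fold (1.42 to 3.76). Hmgcs1 at 0.528, Srebf2 at 0.646 and Insig1 at 0.628 were not called, and neither were Ggps1 at 1.05 and Ebp at 1.23, the highest of their arms. Erythroid markers summed to 5327 and 426 CPM in these cells. In the joint clustering 1 cluster held 99 of 102 stroma cells at E16.5, another 142 of 317 at P7 and yet another 175 of 339 at P14. The part of these shifts in cluster and in erythroid RNA in the ratios was not tested. Among the called of 18 further pathway genes tested, Lbr (19.6 to 41.5 CPM), Vldlr (4.35 to 28.1 CPM), Cyp27a1 (1.09 to 8.06 CPM) and Fdx1 (43.0 to 87.9 CPM) rose and Mylip (12.0 to 3.91 CPM) fell.

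From P7 to P14 stroma cells had none of 28 members higher and 2 lower (median -0.12), against 2.49% of 12377 genes higher and 4.93% lower (median -0.07). Sqle went from 23.7 to 11.1 CPM, 0.469 (0.325 to 0.670), and Msmo1 from 14.9 to 7.18 CPM, 0.482 (0.302 to 0.755). Apoe went from 226 to 451 CPM, 1.99-fold (1.84 to 2.16), just under the threshold. Pmvk went from 22.2 to 11.1 CPM, 0.5004 (0.345 to 0.717), and also just missed the threshold. Scaling by the median of ratios moved the ratios by 0.14 on the log2 scale and gave 1 member higher and 0 lower, with no share of all genes given beside it. Mvd at 1.74, Lss at 1.68, Scap at 0.966, Srebf2 at 0.691, Insig1 at 0.929, Hmgcs1 at 0.801, Scarb1 at 1.16, Abca1 at 1.33 and Stard4 at 0.742 were not called either. Of 19 further pathway genes, Mylip (3.91 to 7.88 CPM) and Cyp27a1 (8.06 to 18.1 CPM) rose.

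Summed over the 19 enzymes, levels stood lower at each later age in stroma cells below the gate. In granulosa the step from P7 to P14 depended on which cells were counted. In granulosa cells below the gate the sum was 725 CPM (680 to 771) at E16.5, 501 CPM (469 to 534) at P7 and 388 CPM (350 to 430) at P14. In stroma cells below the gate it was 529 CPM (496 to 563) at E16.5, 326 CPM (309 to 344) at P7 and 258 CPM (243 to 273) at P14. The theca-marked cells of the gate, 2 at P7 and 42 at P14, are not in the stroma class. Stroma sums with them added were not made. With the granulosa-marked gate cells put back, granulosa held 504 CPM (473 to 536) at P7 and 478 CPM (443 to 514) at P14, and these intervals overlapped. The intervals of E16.5 and P7 did not overlap in either class, nor did those of P7 and P14 in stroma. In granulosa, Hmgcs1 alone gave 323 of the 990 enzyme UMIs at E16.5, and it fell by P7 as given above. From E16.5 to P7 the median log2 ratio in granulosa was -0.50 in the mevalonate arm and -0.08 in the sterol arm. Over all genes tested it was -0.12. With 1 library per age the spread between ovaries is unknown, and age and library cannot be told apart.

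**Figure D5:**
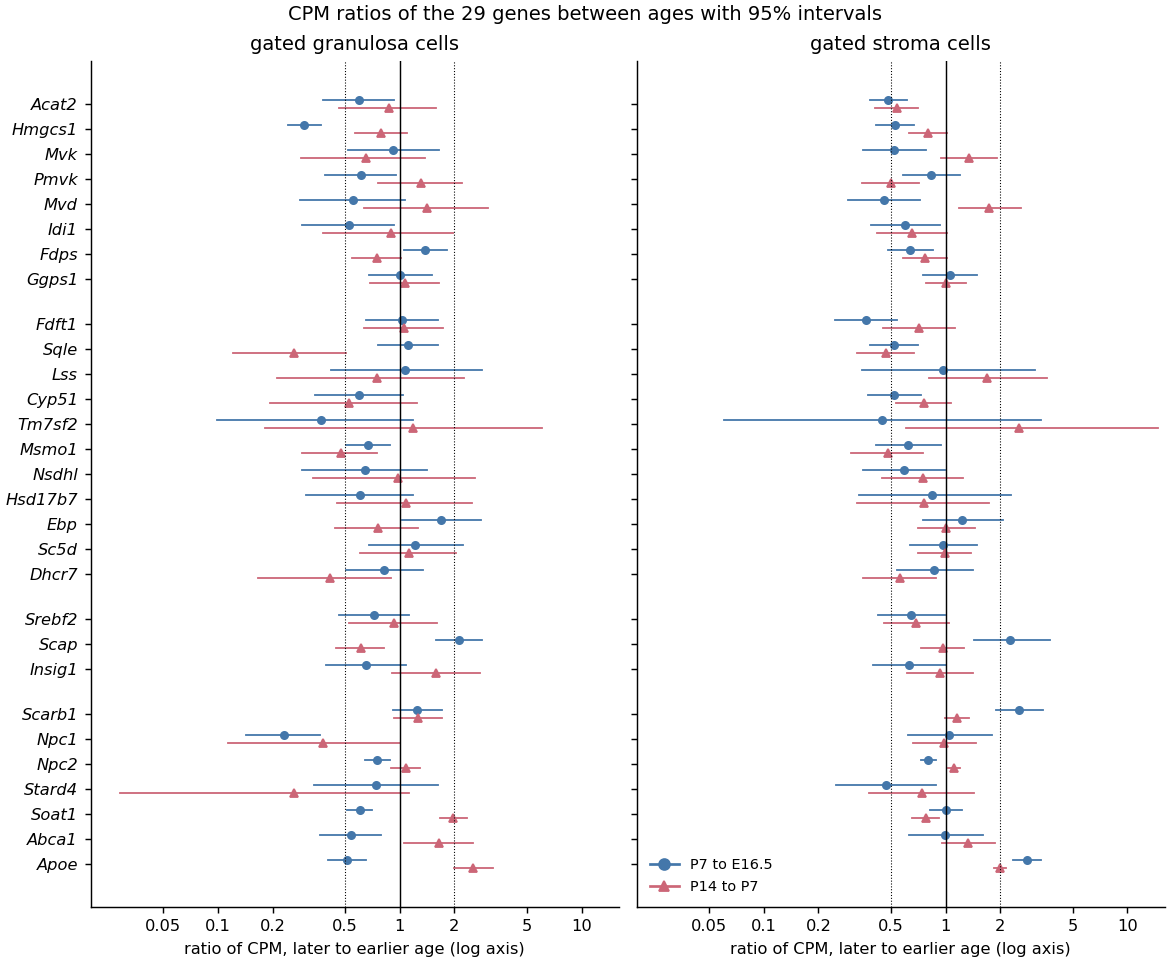
Each row is a member, with CPM ratios of P7 to E16.5 and of P14 to P7 in granulosa and stroma cells on a log axis, 95% counting intervals as bars, and dotted lines at 0.5 and 2. Members with too few UMIs for a call are drawn too. Hmgcs1 and Npc1 in granulosa lie left of 0.5 at P7, and Apoe lies right of 2 in stroma at P7 and in granulosa at P14.

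Over whole libraries, a level mixes how many cells of a type were captured with how much RNA each held, and these cannot be told apart. From E16.5 to P7, 4 of 29 members were higher and 1 lower (median -0.02), against 14.4% of 15661 genes higher and 6.64% lower (median 0.12). Apoe rose from 138 to 634 CPM, 4.6-fold (4.33 to 4.90), Scap from 20.7 to 47.6 CPM, 2.30-fold (1.93 to 2.74), Fdft1 from 23.5 to 49.0 CPM, 2.08-fold (1.76 to 2.47), and Sc5d from 9.59 to 19.6 CPM, 2.04-fold (1.57 to 2.68). Tm7sf2 fell from 3.35 to 1.60 CPM, a ratio of 0.479 (0.235 to 0.931), and is uncertain because Vps51 overlaps it. Erythroid cells made up 34.6% of the E16.5 library and 2.75% of the P7 library. With erythroid and germ cells left out, the split was 1 higher and 3 lower and Fdft1 stood at a log2 ratio of -0.44. With the median-of-ratios scaling, which moved the ratios by -0.25, the split was also 1 and 3. No share of all genes is given beside either split. Uncalled were Ggps1 at 1.37, Idi1 at 0.586, Stard4 at 0.583, Srebf2 at 0.788, Insig1 at 0.978, Hmgcs1 at 0.685 and Scarb1 at 1.89. Of 21 further pathway genes, Vldlr (1.45 to 19 CPM), Cyp27a1 (1.00 to 5.38 CPM) and Gramd1b (3.12 to 17.4 CPM) rose and Lbr (74.5 to 36.7 CPM) fell.

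From P7 to P14 whole libraries had 2 of 29 members higher and none lower (median 0.12), against 2.88% of 15417 genes higher and 7.17% lower (median -0.06). They were Scarb1, from 77.7 CPM (72.0 to 83.8) to 174 CPM (166 to 183), 2.24-fold (2.05 to 2.46), and Abca1, from 22.7 to 46.6 CPM, 2.06-fold (1.73 to 2.45). The 42 theca-marked cells, 7.20% of P14 cells, held 797 of the 1579 Scarb1 UMIs and 187 of the 422 Abca1 UMIs of that library. Hmgcs1 at 1.49, Lss at 1.54, Tm7sf2 at 1.65, Acat2 at 0.724, Fdft1 at 0.577, Srebf2 at 1.23, Scap at 1.00, Insig1 at 1.01, Stard4 at 0.935 and Apoe at 0.969 were not called. Of 21 further pathway genes, Star (4.46 to 21.8 CPM), Fdx1 (75.9 to 395 CPM) and Fdxr (30.7 to 65.6 CPM) rose.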

How the data were processed

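Single-cell RNA-seq counts of 3 mouse ovary libraries were analysed. The deposited matrices list whole-number UMI counts for each gene in each barcode. Cell Ranger 2.1.1 and GRCm38 are named in the submitters' processing notes. Which annotation was used, and how barcodes were called, is not stated there. The files hold 459, 510 and 585 barcodes at E16.5, P7 and P14. A minimum of 200 genes and a limit of 20% mitochondrial UMIs left 456, 509 and 583 cells. The shallowest barcodes held 6747, 6291 and 5568 UMIs.

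Cells entered classes by marker sums per 10000 UMIs: theca gate 10, erythroid 200, germ, immune, endothelium and surface epithelium 10, smooth muscle 40 and above the stroma and granulosa sums, granulosa 15 with stroma under 50, and stroma 20 with granulosa under 15. Only the theca cut was given beforehand. The other cuts, and the split of the gate (10 of theca markers outside it, granulosa under 100), were set on marker sums after seeing the data and before member values were read. No doublet caller was run. The members and gene lists were chosen with earlier results of these data known.

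UMIs were summed per class and compared as CPM ratios with exact 95% intervals (Poisson for levels, conditional binomial for ratios), which treat cells of 1 library as a pool and cover counting error only. Medians used log2(CPM + 10). Levels were not compared between genes. Shares of cells used cells thinned to 5000 UMIs, and 0 cells were shallower. Comparisons were 9 fixed and 4 added after the gate was seen to mix cells. Named were members called in a comparison, the highest and lowest ratio of each role, Scarb1, Apoe, Insig1, Hmgcs1 and Srebf2. Further pathway genes were named where called, except some that are not reported here, and the class levels and values along the gate were picked after they were seen.

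Alternatives changed the pseudocount, filter, scaling, weighting of cells, gate cut, large cells and classes. Clusters for them used 2000 variable genes without the members, 30 components, 15 neighbours and resolution 1.0 (21 clusters, 17 named). The comparison code was tested on simulated data. Python 3.11.15, numpy 2.4.6, scipy 1.17.1, pandas 2.3.3, scanpy 1.11.5, leidenalg 0.10.2 and matplotlib 3.10.9 were used.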

Additional observations from a re-analysis of the deposited data

Results flagged for a closer look

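Members lay on opposite sides of 1 in granulosa and stroma cells over the same pair of ages, each with an interval that excludes 1. From E16.5 to P7, Fdps had a ratio of 1.38 in granulosa and 0.637 in stroma, and Apoe had 0.516 in granulosa and 2.79 in stroma. From P7 to P14, Soat1 had 1.97 in granulosa and 0.776 in stroma. Of these 6 ratios, Apoe in stroma passes the 2-fold threshold. The differences between the classes were not tested, because each age is 1 library.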

How the results depend on the processing

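No paired analysis was possible because each age is 1 library, and no replicate could be left out. Over 128 recomputed counts and medians 120 stayed close, 8 moved and 0 reversed. Over 588 ratios of called members, 533 kept their call, 52 lost it and 3 reversed. Beside the member counts of these settings no share of all genes is given, so they are a description only. The gate had 15 to 18 members higher than granulosa and 19 to 22 higher than stroma in all settings tried, with medians of 0.84 to 1.36 and 1.09 to 1.81. Granulosa against stroma gave 8 to 11 higher. Median-of-ratios scaling shifted granulosa P7 against E16.5 by 0.16 and whole-library P14 against P7 by 0.10 on the log2 scale.

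Counts across ages were less stable. Granulosa P7 against E16.5 went from 3 members to 5 with joint clusters. Granulosa P14 against P7 went from 5 to 3 with granulosa-marked cells put back and to 3 with joint clusters, each with 2 higher and 1 lower, and the median went from -0.04 to 0.05 with these cells put back. Stroma P14 against P7 went from 2 to 1 with median-of-ratios scaling, to 1 with the mean over cells (1 higher and 0 lower) and to 4 with joint clusters (1 higher and 3 lower). Whole-library P7 against E16.5 went from 5 to 3 with the mean over cells (1 higher and 2 lower) and to 3 without cells over 3 times the median UMIs. There the log2 ratio of Fdft1 reversed, to -0.13 with the mean over cells, -0.42 without the large cells and -0.44 without erythroid and germ cells. Germ cells held 282 of the 428 Fdft1 UMIs of the P7 library. Erythroid and germ cells were left out together, so their parts were not separated. The cause of these shifts was not tested. Whole-library P14 against P7 gave 2 higher in every setting. Calls of members on fewer than 10 granulosa UMIs (Cyp51, Nsdhl, Dhcr7, Npc1 and Stard4 at P14) are the least precise. Among the further pathway genes named, the P14 calls of Vldlr and Cyp27a1 that involve granulosa rest on 3 granulosa UMIs each.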
